A study of Mus musculus with 8 samples.

Results

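Potassium channels set the resting potential of the cardiac myocyte and repolarise it after each beat, and the genes of their subunits carry names that start with Kcn. In the deposited expression table of mouse ventricle, 45 of 13677 genes have such a name. They are 44 protein-coding genes and Kcnq1ot1, a long noncoding RNA that overlaps Kcnq1 on the opposite strand. GENCODE M21, the mouse annotation used for positions and lengths, holds 99 Kcn names, 94 of them protein-coding. Membership rests on the name alone, though this rule was chosen with earlier results of these data known.

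Poly(A) RNA of ventricular heart tissue was sequenced in 8 libraries, labelled C (n = 3), KO (n = 2, numbered 1 and 3) and DKO (n = 3). The series sets Vhl-deficient against wild-type ventricles in a model in which the Wt1 promoter drives Cre recombinase. Wt1 marks the epicardium and the cells that derive from it, so deletion by this driver is not one of all cardiac cells. Vhl is the part of a ubiquitin ligase that recognises hypoxia-inducible factors. The labels give no sex, age or strain, do not spell out the 3 abbreviations, and do not name the further allele that DKO may carry. No treatment was applied before extraction, per the labels. Group names therefore stand for the labels on the libraries.

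The table held 15028176 to 21202385 reads per library. Levels are given as the deposited signal, which is the number of reads in proportion to a scaled library size, and 3 reads correspond to a signal of 0.104 to 0.283. The Vhl transcript was at 8.97, 7.5 and 7.26 in C, 8.33 and 8.96 in KO and 11.2, 10.9 and 8.61 in DKO. These ranges overlap between C and KO (log2 fold change 0.12 ± 0.18, SE, adjusted p = 0.708), and a gene-level value of whole tissue does not separate deleted from intact alleles. Mitochondrial transcripts took 23.1 to 29.0% of reads in C, 16.2 and 17.4% in KO, and 22.9, 41.6 and 29.9% in DKO. DKO 2 stood apart: its 10 leading genes took 51.5% of reads, and those of the other libraries 22 to 38.1%. The summed signal of 8 ventricular myocyte markers was 60567 to 63714 in C, 36398 and 40971 in KO and 36173 to 59650 in DKO. All 8 were measured in every library, including Myl2 and Tnnt2. Of the 8, 1 passed the test as lower in KO than in C and 0 as higher, while Actc1 had a higher signal in both KO libraries than in C. Of 12 skeletal muscle markers, 11 passed the test as lower in KO than in C and 8 as lower in DKO than in C, where 21 genes (0.155%) passed in all. The exception in KO was Acta1, at 285 to 518 in C and 2393 and 1564 in KO (log2 fold change 2.19 ± 0.80, SE, limma adjusted p = 0.0886). Over all genes tested, 6.90% passed as higher and 7.01% as lower in KO against C. In that comparison 3 of 7 fibroblast markers passed as higher (summed signal 493 to 728 in C, 1102 and 1416 in KO, 506 to 1159 in DKO). So did 1 of 7 conduction system markers and 2 of 4 epicardial ones, while 2 of 3 adipocyte markers were lower and none of 7 endothelial or 6 immune markers passed. The part of these shifts in the results below was not tested. In whole tissue, fewer cells of a type and less RNA per cell cannot be told apart.

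A voltage-gated potassium channel is built from 4 pore subunits, to which smaller beta subunits bind and change the gating. In the mouse ventricle, fast repolarisation is carried by Kv4 channels with the KChIP2 protein, slower phases by Kv1.5 and Kv2 channels, and the resting potential by inward rectifiers of the Kir2 family. Silent subunits of the Kv6 and Kv8 families form no channel alone and assemble with Kv2 subunits. Channels of the Kir6 family sense ATP, and those of the Kir3 family open when a G protein is activated by acetylcholine or adenosine.

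A small number of genes made up most of the channel RNA in C. Per kilobase of the longest transcript, Kcnk3 (TASK-1, a background channel with paired pore domains) came first with a mean signal of 62.6 ± 1.79 (SD, n = 3). Kcng2 (the silent subunit Kv6.2) followed with 60.5 ± 2.23 and Kcnip2 (KChIP2, the beta subunit of Kv4) with 52.9 ± 5.29. The spreads of Kcnk3 and Kcng2 overlap, so their order is not resolved. Kcnj11 (Kir6.2) came next at 24.9 ± 3.55 per kilobase, ahead of Kcnj8 (Kir6.1) at 15.2 ± 2.17 and Kcnh2 (ERG1, the rapid delayed rectifier) at 14.9 ± 2.46. Those last 2 genes do not differ beyond their spread. Kcnq1 (Kv7.1, the slow delayed rectifier) stood at 9.52 ± 1.37 per kilobase and Kcnj3 (Kir3.1) at 5.40 ± 0.753.

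Kcnk3, Kcng2 and Kcnip2 held 59.9 to 62.2% of the summed per-kilobase signal of the Kcn genes in C. Their share was 51.3 and 50.2% in KO and 54.0 to 60.8% in DKO. No library of KO overlapped one of C in this share, which follows from levels tested gene by gene below. Summed over all members, the signal was 921, 1053 and 1035 in C, 779 and 985 in KO, and 1030, 831 and 1143 in DKO, so the groups overlapped in the total. By class, channels with paired pore domains took 21.9 to 23.7% of the per-kilobase signal in C, 17.9% in each KO library and 19.7 to 21.6% in DKO. Inward rectifiers took 18.3 to 20.7% in C, 22.4 and 23.0% in KO and 19.9 to 22.5% in DKO.

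**Figure D1:**
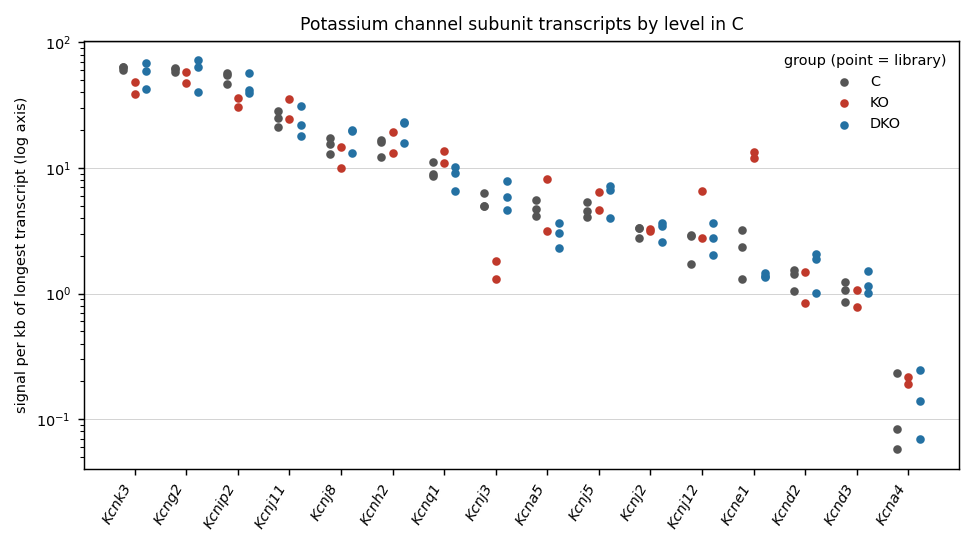
Signal per kilobase of longest transcript (log axis) for the subunits of the ventricular action potential and the highest members in C; each point is 1 library, grey for C, red for KO and blue for DKO. Most genes keep overlapping groups, while Kcne1 lies higher and Kcnj3 lower in both KO libraries than in any other library.

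The comparison of KO with C asks which channel genes differ in the libraries labelled KO. Of 44 members tested, 8 passed (limma on log2(signal + 1), Benjamini-Hochberg adjusted p under 0.05 over all 13544 genes tested), or 18.2%. Over all genes tested, 13.9% passed, so the share of channel genes was not far from that of genes in general. The slow delayed rectifier subunit Kcne1, its relative Kcne4, the calcium-activated channel Kcnn3 and the ELK channel Kcnh3 rose. The Kir3.1 gene Kcnj3, the silent subunit Kcnv2, the Kv1.2 gene Kcna2 and the KChIP2 gene Kcnip2 fell. In the background, 6.90% of genes passed as higher and 7.01% as lower. The median log2 fold change was -0.01 over the members and 0.01 over all genes, and the median size of change was 0.41 against 0.29.

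In DKO against C, no member passed limma's test, and 0.155% of all genes did (0.0738% higher and 0.0812% lower). At an unadjusted p under 0.05 limma gave 7 members, or 15.9% against 8.50% of all genes, and edgeR and DESeq2 on the recovered reads also gave 0 adjusted calls and 7 unadjusted ones. The smallest limma adjusted p of a member was 0.509, for Kcna1, for which DESeq2 gave 0.377. In DKO against KO, 9 members passed, or 20.5%, against 11.8% of all genes. Those that rose include Kcnj3, Kcnv2, Kcna2, Kcna1 and Kcnt2, while Kcne1, Kcnh3 and Kcnn3 fell. The background was 6.08% of genes higher and 5.73% lower. The 2 comparisons with KO share the KO libraries, so a member that stands apart in KO enters both.

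Kcne1, Kcnj3, Kcnv2 and Kcna2 passed in both comparisons with KO in 17 of 17 alternatives. Kcnh3 passed in the 15 in which it was tested, but it met the minimum level only through the 2 KO libraries, with 0 to 4 reads elsewhere. Without either KO library it was not tested, so its 15 of 15 is no measure of how firm its calls are. The other calls were lost under some alternatives, which are named beside the genes described below.

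The minimum level bears on these counts. A gene was tested when its signal reached 1 in at least 2 libraries, and 28 members reached 1 in all 8. Kcne3, a beta subunit, was not tested: its signal was 0.846 and 1.37 in KO and 0.142 to 0.520 in the other libraries. Kcnh3 met the filter through KO alone and Kcna1 through DKO alone. With all 45 members tested and no filter, 8, 0 and 9 members passed in KO against C, DKO against C and DKO against KO, against 13.9%, 0.146% and 11.7% of all genes.

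**Figure D2:**
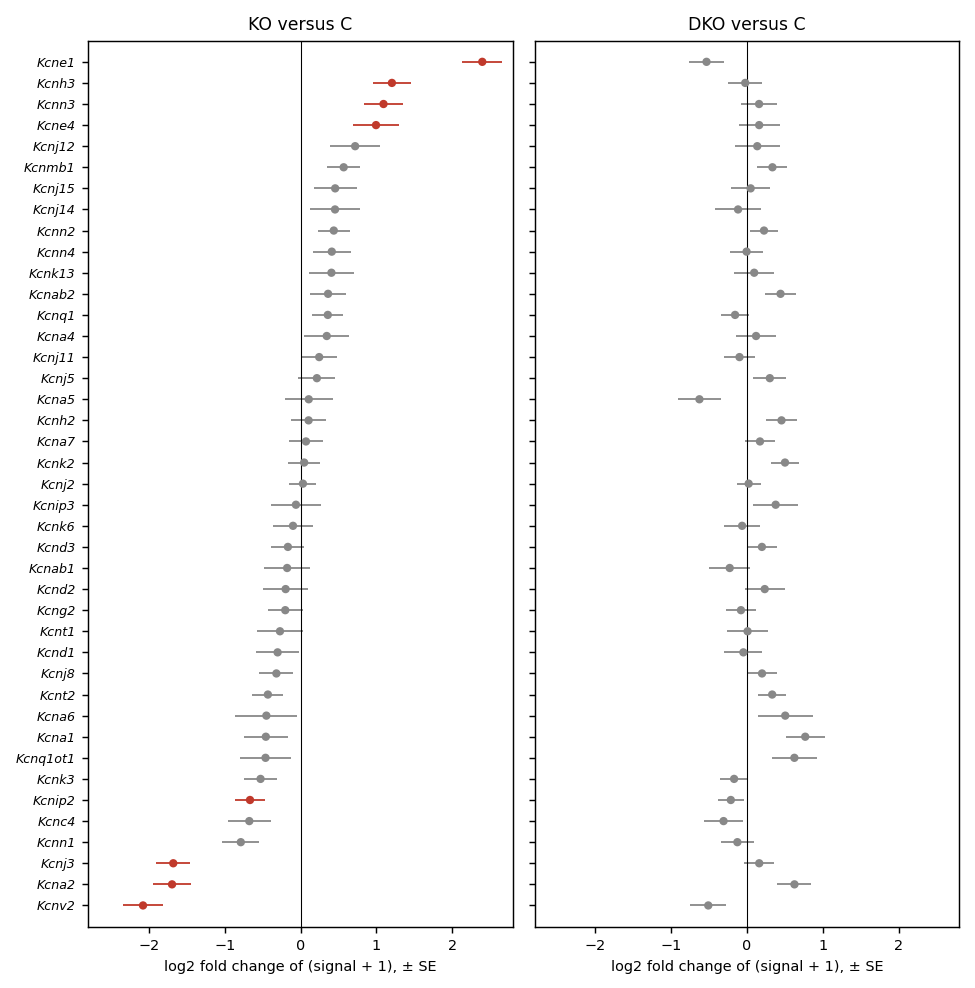
Log2 fold changes of signal + 1 (points, with SE as bars) of 41 of the 44 members tested, ordered by KO against C on the left and shown for DKO against C on the right; red marks members past the adjusted threshold. The 8 members in red lie at both ends on the left, from -2.08 for Kcnv2 to 2.40 for Kcne1, and no member is red on the right.

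The promoters of the called members are shown where the RefSeq table (GRCm38.p6) has an entry, which it does for 6 of the 11 members called in any comparison and for 29 of 45 members. Each sequence runs from 250 bases before the annotated start to 50 after it. Hypoxia-inducible factors bind DNA at a core of ACGTG or GCGTG, and capitals mark these letters on either strand (CACGT and CACGC on the reverse). Kcne4 and Kcnn3 rose in KO, and Kcnj3 and Kcna2 fell. They lie at chr1:78816661-78816960 (Kcne4), chr3:89519914-89520213 (Kcnn3), chr2:55435720-55436019 (Kcnj3) and chr3:107101317-107101616 (Kcna2), all on the plus strand.
Kcne4: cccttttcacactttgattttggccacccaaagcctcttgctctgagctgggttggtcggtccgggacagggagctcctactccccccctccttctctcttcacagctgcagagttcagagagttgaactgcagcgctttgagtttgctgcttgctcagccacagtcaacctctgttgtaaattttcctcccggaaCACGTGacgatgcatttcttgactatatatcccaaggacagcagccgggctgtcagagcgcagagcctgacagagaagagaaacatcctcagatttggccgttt
Kcnn3: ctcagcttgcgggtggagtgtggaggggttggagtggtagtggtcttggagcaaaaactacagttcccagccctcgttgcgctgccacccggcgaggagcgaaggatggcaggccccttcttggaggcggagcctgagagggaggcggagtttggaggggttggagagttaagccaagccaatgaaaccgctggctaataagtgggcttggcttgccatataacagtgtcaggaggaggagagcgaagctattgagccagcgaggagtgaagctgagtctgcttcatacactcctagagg
Kcnj3: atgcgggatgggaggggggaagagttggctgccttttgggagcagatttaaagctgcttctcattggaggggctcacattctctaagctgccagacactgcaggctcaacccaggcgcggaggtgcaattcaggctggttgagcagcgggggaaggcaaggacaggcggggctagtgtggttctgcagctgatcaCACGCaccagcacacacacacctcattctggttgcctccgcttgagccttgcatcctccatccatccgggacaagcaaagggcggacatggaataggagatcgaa
Kcna2: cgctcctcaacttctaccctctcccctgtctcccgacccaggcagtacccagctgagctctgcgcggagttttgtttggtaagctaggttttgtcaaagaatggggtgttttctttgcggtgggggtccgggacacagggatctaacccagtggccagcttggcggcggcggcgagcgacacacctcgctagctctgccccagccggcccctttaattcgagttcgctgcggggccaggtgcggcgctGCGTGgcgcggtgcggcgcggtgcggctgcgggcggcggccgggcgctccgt

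In Kcne4 the letters CACGT and ACGTG overlap in 1 palindrome, 54 and 53 bases before the start. Kcnj3 held CACGC at -55 and Kcna2 held GCGTG at -2, while neither core occurs in this window of Kcnn3. Among the other called members with an entry, Kcnip2 held CACGC at 26 bases after the start and Kcnt2 held neither. Over 32851 promoters of the same length, 19.6% held ACGTG, 32.4% held GCGTG and 43.8% held either one on some strand. These are matches of short letters, present near genes that rose and near genes that fell.

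Kcne1 encodes minK, the beta subunit that joins Kv7.1 and slows its opening. The gene (ENSMUSG00000039639) lies on chromosome 16 at 92345982 to 92359468, on the minus strand of GRCm38. Its signal was 7.44, 10.2 and 4.17 in C, 38.4 and 42.8 in KO, and 4.30, 4.39 and 4.64 in DKO. Both KO libraries were above every other library by a wide margin. Kcne1 rose 5.27-fold in signal + 1 in KO against C (log2 fold change 2.40 ± 0.26, SE, limma adjusted p = 0.000358). It fell by 2.93 ± 0.26 on the log2 scale in DKO against KO (adjusted p = 0.000143), and DKO against C gave -0.53 ± 0.24 (adjusted p = 0.588). In rank per kilobase among the 45 members, Kcne1 was number 16 in C, 6 in KO and 18 in DKO.

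Kcnq1, the pore subunit that Kcne1 joins, did not pass in any comparison. Its signal was 26.9, 33.6 and 26.0 in C, 32.9 and 41.7 in KO, and 27.5, 19.9 and 30.6 in DKO (KO against C 0.36 ± 0.20, adjusted p = 0.269). Reads of Kcnq1 and of its antisense transcript cannot be told apart where the counting ignores strand, and whether it did is unknown here. The ratio of Kcne1 to Kcnq1 per kilobase was 0.264, 0.290 and 0.153 in C, 1.11 and 0.980 in KO, and 0.149, 0.211 and 0.145 in DKO. The ratio was thus near 1 in KO alone, and it was chosen with the values known. It rests on the longest annotated transcript of each gene, so a value near 1 does not mean equal numbers of transcripts.

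Kcne4, whose protein inhibits Kv7.1 and Kv1 channels in expression systems, stood at 2.05, 1.60 and 0.958 in C, 4.78 and 3.28 in KO, and 2.92, 1.75 and 1.01 in DKO. It was called in KO against C (1.0 ± 0.30, adjusted p = 0.0468), with no overlap between the groups. The call was lost when any 1 library of C or KO was left out (adjusted p = 0.0641 to 0.292), with edgeR (0.0546), with a pseudocount of 0.5 (0.0529) and with quantile normalisation (0.0557). DKO against KO gave -0.84 ± 0.30 (adjusted p = 0.0936).

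**Figure D3:**
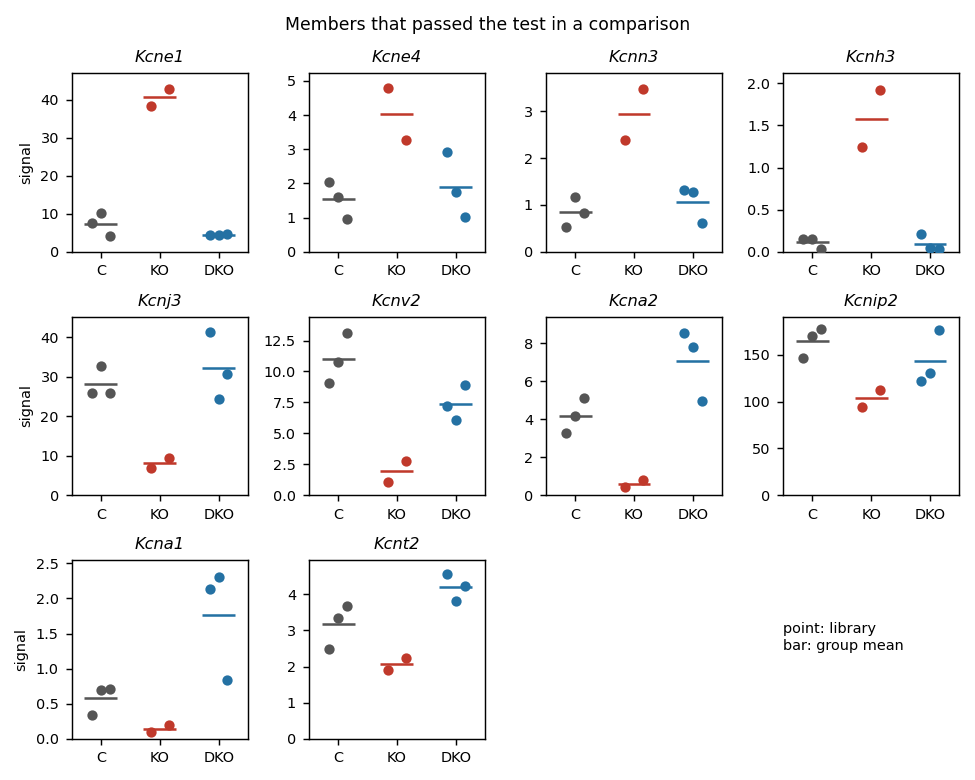
Signal of 10 of the 11 members that passed in at least 1 comparison; each point is 1 library and each bar the group mean. In Kcne1, Kcnn3, Kcnh3 and Kcne4 both KO libraries lie above all others, and in Kcnj3, Kcnv2, Kcna2, Kcnip2, Kcna1 and Kcnt2 both lie below all others.

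Kcnj3 encodes Kir3.1 (GIRK1), which with Kir3.4 forms the acetylcholine-activated channel of atrial and pacemaker cells. The gene (ENSMUSG00000026824) lies on chromosome 2 at 55435970 to 55598145, plus strand. Its signal was 25.8, 32.7 and 26.0 in C, 6.83 and 9.48 in KO, and 41.3, 24.3 and 30.7 in DKO. The KO libraries were the lowest of all, and C and DKO overlapped. Kcnj3 fell by 1.68 ± 0.22 on the log2 scale in KO against C (adjusted p = 0.00106), a level 3.20-fold lower, and rose by 1.84 ± 0.22 in DKO against KO (adjusted p = 0.000809). By rank per kilobase it was number 8 in C, number 15 in KO and number 8 in DKO.

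The partner gene Kcnj5 (Kir3.4) was at 21.4, 25.3 and 19.1 in C, 21.6 and 30.1 in KO, and 33.9, 18.7 and 31.1 in DKO, with 0.22 ± 0.24 in KO against C (adjusted p = 0.601). The ratio of Kcnj3 to Kcnj5 per kilobase lay between 0.887 and 1.22 in the 6 libraries of C and DKO and was 0.285 and 0.283 in KO. Since these are genes of the atrium as well, atrial markers were read beside them. Myl7, the atrial light chain, was at 4.50, 57.2 and 1.02 in C, 26.6 and 0.988 in KO, and 16.1, 6.37 and 0.375 in DKO, a wide range within each group. The library highest in Myl7 was also highest in Kcnj3 within C (C 2) and within DKO (DKO 1). Within KO, the library higher in Myl7 (KO 1) was the lower in Kcnj3. Over 5 atrial markers in the table, the summed signal was 239 to 574 in C, 1637 and 2507 in KO and 220 to 432 in DKO, most of it from Nppa, which ventricular myocytes also make. Bmp10 is not among the measured genes, and Sln had 0 to 277 reads per library. The part of atrial RNA in the Kcnj3 values was not tested.

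Kcnv2 encodes Kv8.2, a silent subunit that joins Kv2 subunits and shifts its gating. The gene (ENSMUSG00000047298) lies on chromosome 19 at 27322588 to 27337179, plus strand. Its signal was 9.03, 10.8 and 13.1 in C, 1.08 and 2.79 in KO, and 7.19, 6.09 and 8.90 in DKO. All C libraries were above all DKO libraries, and both KO libraries were far below. Kcnv2 fell by 2.08 ± 0.26 on the log2 scale in KO against C (adjusted p = 0.000890), the largest fall of a member on this scale. This is 4.22-fold in signal + 1, and edgeR on the reads gave 5.63-fold. It rose by 1.57 ± 0.26 in DKO against KO (adjusted p = 0.00392). In DKO against C the difference was -0.51 ± 0.23 (adjusted p = 0.588).

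The other silent subunit, Kcng2, was at 163, 173 and 174 in C, 133 and 164 in KO, and 180, 114 and 203 in DKO, with -0.20 ± 0.23 in KO against C (adjusted p = 0.600). It did not pass in any comparison, and it overlaps a measured gene on the opposite strand.

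**Figure D4:**
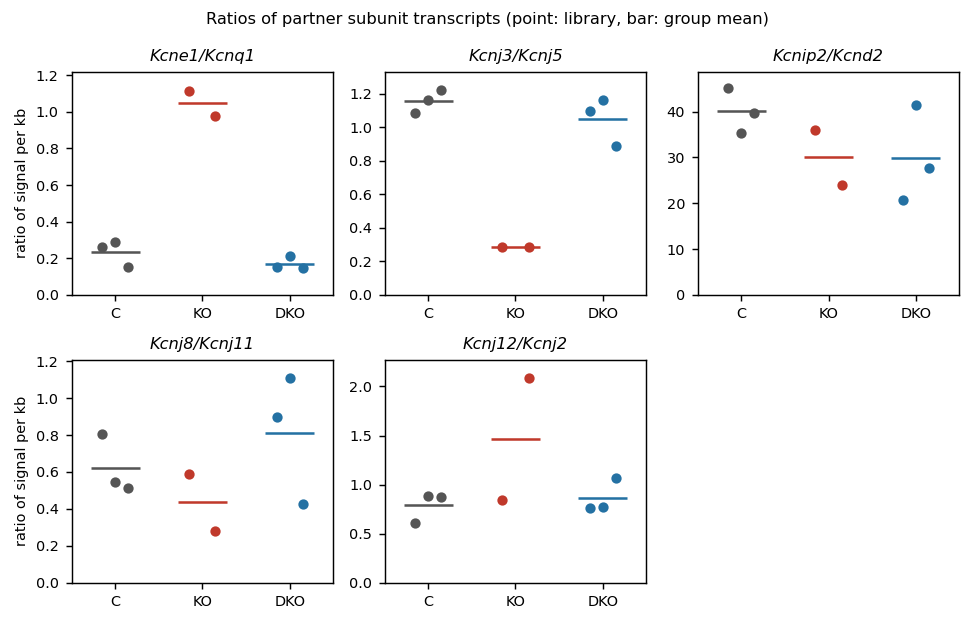
Ratios of the signal per kilobase of subunits that assemble together; each point is 1 library and each bar the group mean. Kcne1 to Kcnq1 is near 1 in KO only, Kcnj3 to Kcnj5 is 0.285 and 0.283 in KO, and the ratios of the other pairs overlap between groups.

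The fast transient outward current depends on Kv4.2, Kv4.3 and KChIP2. Kcnip2 (ENSMUSG00000025221) lies on chromosome 19 at 45791839 to 45816061, minus strand. Its signal was 146, 171 and 178 in C, 94.7 and 112 in KO, and 122, 131 and 177 in DKO. The KO libraries were the lowest, and DKO overlapped C. Kcnip2 fell by 0.67 ± 0.19 on the log2 scale in KO against C (adjusted p = 0.0394), or 1.59-fold in signal + 1. Leaving out any 1 library of C or KO ended this call (adjusted p = 0.0717 to 0.243), as did the fit without an intensity trend (0.0517). DKO against KO gave 0.45 ± 0.19 (adjusted p = 0.148).

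Its pore partners did not pass. Kcnd2 (Kv4.2) was at 5.36, 7.99 and 7.38 in C, 4.35 and 7.71 in KO, and 9.77, 5.24 and 10.6 in DKO, and Kcnd3 (Kv4.3) at 6.15, 7.62 and 8.87 in C, 5.57 and 7.68 in KO, and 7.29, 8.26 and 10.9 in DKO. Their log2 fold changes in KO against C were -0.20 ± 0.29 and -0.17 ± 0.22. Transcripts of KChIP2 exceeded those of Kv4.2 per kilobase in every library, with a ratio of 35.3 to 45.1 in C, 36.0 and 24.1 in KO, and 20.7 to 41.4 in DKO. Kcna4 (Kv1.4, the slow transient current) was low in every group, between 0.276 and 1.18, and did not pass.

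Kcna5 encodes Kv1.5 of the ultrarapid delayed rectifier. Its signal was 11.8, 15.8 and 13.4 in C, 9.07 and 23.6 in KO, and 8.76, 10.4 and 6.54 in DKO. The 2 KO libraries lie on either side of C, so KO against C could not be resolved (0.11 ± 0.31, adjusted p = 0.853). Every DKO library was below every C library, with -0.63 ± 0.28 (limma adjusted p = 0.588). DKO against KO gave -0.74 ± 0.31 (adjusted p = 0.145) and passed with DESeq2 (0.0403) and without KO 1 (0.0233).

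Kcna2 (Kv1.2) and Kcna1 (Kv1.1) form channels of myelinated axons and are also made in other excitable cells. Kcna2 (ENSMUSG00000040724) lies on chromosome 3 at 107101146 to 107115005, plus strand. Its signal was 3.28, 4.19 and 5.10 in C, 0.413 and 0.780 in KO, and 8.53, 7.79 and 4.93 in DKO. KO was lowest, and DKO overlapped C only through DKO 3. It fell by 1.69 ± 0.25 on the log2 scale in KO against C (adjusted p = 0.00178) and rose by 2.32 ± 0.25 in DKO against KO (adjusted p = 0.000348). The scale of signal + 1 understates a change at such low levels, and edgeR on the reads gave -2.82 and 3.58 for the same comparisons.

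Kcna1 had a signal of 0.337, 0.693 and 0.710 in C, 0.0984 and 0.191 in KO, and 2.14, 2.31 and 0.835 in DKO. It rose in DKO against KO (1.22 ± 0.29, adjusted p = 0.0195), and the call was lost with a replicate block (0.0525). Without KO 1 or KO 3 it was lost as well (log2 fold change 1.17 and 1.28). It no longer met the filter without DKO 1 or DKO 2. Kcna6 (Kv1.6), its neighbour on chromosome 6, was at 1.62, 1.12 and 0.834 in C, 0.335 and 0.884 in KO, and 4.30, 2.41 and 0.605 in DKO, and did not pass (0.95 ± 0.41 in DKO against KO, adjusted p = 0.148), though it did with DESeq2 and without DKO 3 (0.0139 to 0.0328). Each of these 3 genes was highest in DKO 1 and DKO 2 and lowest in KO 1.

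Markers of nerve and glia moved with these genes in part. Of 8 such markers 5 were in the table, and Snap25 and Th are among those not analysed here. Of the 5, 1 passed as lower and 2 as higher in KO against C, and 2 as higher and 2 as lower in DKO against KO. Over all genes tested, 7.01% passed as lower and 6.90% as higher in KO against C, and 6.08% as higher and 5.73% as lower in DKO against KO. Sox10, a glial transcription factor, was at 2.42, 2.2 and 2.87 in C, 0.492 and 0.815 in KO, and 6.37, 5.52 and 1.58 in DKO, with an adjusted p of 0.0710 in KO against C and 0.0176 in DKO against KO. Tubb3 and Uchl1, neuronal genes, rose in KO (1.73 ± 0.28 and 1.27 ± 0.20, adjusted p = 0.00260 and 0.00250). The summed signal of the 5 markers was 18.7 to 22.9 in C, 30.9 and 33.2 in KO and 18.0 to 31.1 in DKO. The part of glial or neuronal RNA in the Kv1 values was not tested.

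**Figure D5:**
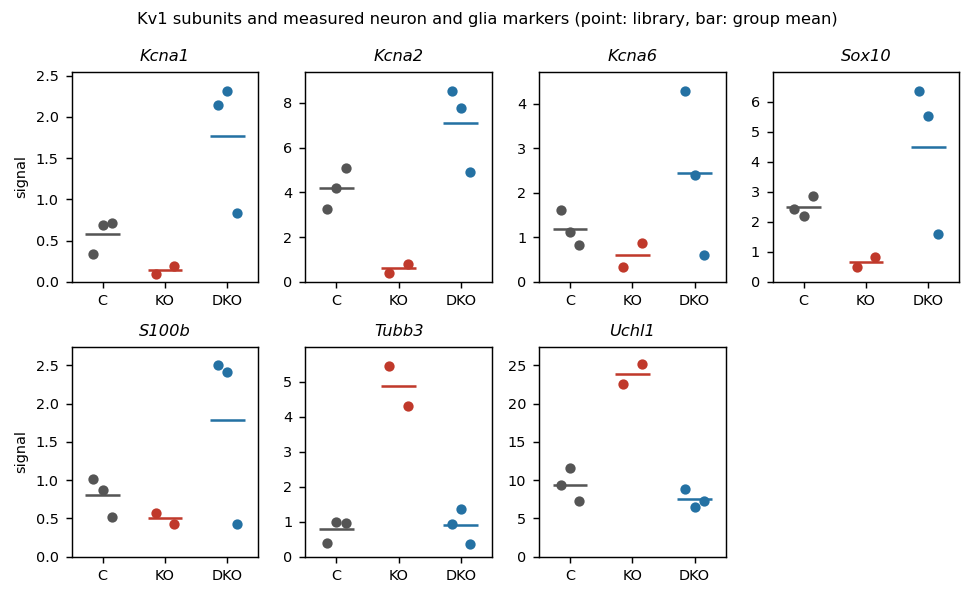
Signal of Kcna1, Kcna2 and Kcna6 and of 4 nerve and glia markers; each point is 1 library and each bar the group mean. Kcna1, Kcna2 and Sox10 are lowest in both KO libraries, S100b and Kcna6 overlap between groups, and Tubb3 and Uchl1 are highest in both KO libraries.

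Kcnh2, the pore subunit of the rapid delayed rectifier, was at 51.2, 67.5 and 70.5 in C, 55.5 and 81.7 in KO, and 97.8, 67.1 and 96.6 in DKO. It did not pass in KO against C (0.11 ± 0.23, adjusted p = 0.798) or in DKO against C (0.45 ± 0.20, adjusted p = 0.588). Its relative Kcnh3 (an ELK channel known from the forebrain) was near the detection limit outside KO. It had 2, 2 and 0 reads in C, 31 and 55 in KO, and 4, 0 and 0 in DKO. These correspond to a signal of 1.24 and 1.92 in KO and at most 0.207 elsewhere, close to the level of 3 reads.

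Kcnh3 rose in KO against C (1.21 ± 0.25, adjusted p = 0.00904) and fell by 1.23 ± 0.25 in DKO against KO (adjusted p = 0.00980). Its fold change depends on the pseudocount and is no measure of size. The gene lies on chromosome 15 at 99224861 to 99242817 and overlaps Mcrs1 on the opposite strand. Mcrs1 did not pass in KO against C (-0.32 ± 0.18, adjusted p = 0.249).

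Among inward rectifiers of the resting potential, Kcnj2 (Kir2.1) was the most even. Its signal was 15.2, 18.1 and 18.1 in C, 17.9 and 17.0 in KO, and 19.8, 14.1 and 18.6 in DKO, with 0.03 ± 0.18 in KO against C (adjusted p = 0.929). Kcnj12 (Kir2.2) was at 4.19, 7.26 and 7.14 in C, 6.87 and 16.1 in KO, and 6.78, 4.95 and 8.96 in DKO. Only KO 3 lay outside the range of the other libraries, and KO against C gave 0.72 ± 0.33 (adjusted p = 0.170).

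The ATP-sensitive channel is built from Kir6 pore subunits and sulfonylurea receptors. Kcnj11 was at 67.1, 89.4 and 78.5 in C, 77.3 and 110 in KO, and 68.9, 56.9 and 97.2 in DKO (0.25 ± 0.24 in KO against C, adjusted p = 0.529). Kcnj8, which is abundant in pericytes and smooth muscle, was at 43.8, 39.4 and 32.8 in C, 37.1 and 25.3 in KO, and 50.2, 51.1 and 33.6 in DKO (-0.32 ± 0.22, adjusted p = 0.379). Neither passed, and neither did the receptor genes Abcc8 and Abcc9 (-0.35 ± 0.19 and 0.20 ± 0.17 in KO against C). Markers of pericytes and smooth muscle summed to 541 to 661 in C, 702 and 792 in KO and 559 to 872 in DKO. Of these, 1 of 8 passed as higher in KO against C, as did 6.90% of all genes tested.

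Kcnk3 was at 231, 244 and 241 in C, 147 and 186 in KO, and 225, 162 and 261 in DKO. Both KO libraries were below every C library, and DKO spanned the gap. The difference of -0.53 ± 0.21 in KO against C did not pass (adjusted p = 0.120). It passed without DKO 2 (0.0204) and with C and KO fitted alone (0.0134). Kcnk3 overlaps a measured gene on the opposite strand.

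Small-conductance channels open on calcium and couple it to repolarisation. Kcnn3 (SK3) was at 0.520, 1.18 and 0.834 in C, 2.38 and 3.48 in KO, and 1.31, 1.27 and 0.605 in DKO, with both KO libraries above all others. It rose in KO against C (1.09 ± 0.26, adjusted p = 0.0178) and fell by 0.94 ± 0.26 in DKO against KO (adjusted p = 0.0391). The first call was lost without C 1, C 3, KO 1 or KO 3 (adjusted p = 0.0518 to 0.202). The second was lost without any 1 library except DKO 1 and DKO 2 (0.0512 to 0.318), with edgeR (0.0504), with a pseudocount of 0.5 (0.05002) and with DKO and KO fitted alone (0.0744).

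Kcnn1 (SK1) was at 13.9, 16.5 and 21.5 in C, 8.52 and 10.5 in KO, and 16.1, 11.3 and 20.4 in DKO. It missed the threshold in KO against C (-0.79 ± 0.24, adjusted p = 0.0509) and passed under 8 of 17 alternatives (0.0111 to 0.0496), edgeR, DESeq2 and median centring among them, and it is named after its values were seen. Kcnn2 (SK2) was at 3.74 ± 0.617 in C, 5.39 ± 0.351 in KO and 4.56 ± 1.0 in DKO and did not pass. Kcnt2, a sodium-activated channel, was at 2.48, 3.35 and 3.68 in C, 1.91 and 2.24 in KO, and 4.57, 3.82 and 4.24 in DKO. It rose in DKO against KO (0.76 ± 0.20, adjusted p = 0.0321), and the call was lost without C 2, DKO 1 or DKO 3 (0.0536 to 0.0616). The call was also lost with DKO and KO fitted alone (0.075) and with a replicate block (0.0603). Without KO 1 or KO 3 it was lost as well (log2 fold change 0.68 and 0.84).

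The 34 members called in no comparison include 20 outside the action potential list and the highest levels, with mean signals in C of 0.336 to 17.3. Among pore subunits of Kv1 to Kv4, 10 genes, among them Kcna4, Kcna5, Kcna6, Kcna7, Kcnc4, Kcnd1, Kcnd2 and Kcnd3, had log2 fold changes of -0.68 to 0.35 in KO against C. Among channels with paired pore domains, Kcnk13, Kcnk2, Kcnk3 and Kcnk6 spanned -0.53 to 0.41. Among inward rectifiers other than Kcnj3, 7 genes spanned -0.32 to 0.72, including Kcnj14 and Kcnj15. Of the beta subunits, Kcnab1, Kcnab2, Kcnip3 and Kcnmb1 spanned -0.18 to 0.57 with adjusted p of at least 0.109.

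Genes whose products bind, anchor or regulate these channels were read from a list of 23, of which 17 were in the table. In KO against C, 4 passed as higher and none as lower, where 6.90% of all genes were higher and 7.01% lower. Fhl1, a LIM-domain protein that binds Kv1.5, was at 63.0, 72.8 and 56.1 in C and 156 and 107 in KO (1.01 ± 0.20, adjusted p = 0.00747). Slmap, a membrane protein of the sarcolemma, Irx4, a ventricular transcription factor, and Lrrc55, an auxiliary subunit of the large-conductance channel, rose by 0.95 ± 0.22, 0.80 ± 0.22 and 0.92 ± 0.26 on the log2 scale (adjusted p = 0.0156, 0.0299 and 0.0362). Slmap and Fhl1 fell by 1.32 ± 0.22 and 1.10 ± 0.20 in DKO against KO (adjusted p = 0.00393 and 0.00579). No gene of the list passed in DKO against C. The median log2 fold change of the 17 genes in KO against C was 0.17, against 0.01 over all genes.

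The sodium-potassium pump restores the gradient on which the channels depend, and 16 of 17 genes listed for the pump and for chloride and lysosomal or reticular ion transport were in the table. In KO against C, 2 passed as higher and 1 as lower, against the same 6.90 and 7.01% of all genes. Fxyd6 and Fxyd5, small regulators of the pump, rose in KO against C by 1.37 ± 0.18 and 1.44 ± 0.28 (adjusted p = 0.00104 and 0.00713). Fxyd6 fell by 0.86 ± 0.18 in DKO against KO (adjusted p = 0.0120), and the lysosomal channel gene Tmem175 rose by 0.82 ± 0.18 (adjusted p = 0.0141). None of the 16 passed in DKO against C. Their median log2 fold change in KO against C was 0.27.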

How the data were processed

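Poly(A) RNA libraries of ventricular tissue were sequenced on an Illumina instrument, per the labels' protocols. Tools listed in the submitters' processing notes are limma, cutadapt and RSEM 1.3.1, with the build GRCm38 and no role for any. The annotation and the strand setting that the authors used are not stated there. The deposited signal is reads plus 0.5 in proportion to a scaled library size, as read from the values. Dividing by each column's step gave whole reads in 100% of cases, to a tolerance of 0.001 reads, and the authors' scaling factors equal edgeR's TMM factors. No KO library numbered 2 is included; it is not analysed here. Whether the libraries come from separate animals is not in the labels. The p-values then rest on the spread between libraries alone, which may be technical. Replicates differed by more than counting noise (chi-square per gene at least 13.7).

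Members are the genes whose name starts with Kcn. The test was limma 3.58.1 (R 4.3.3) on log2(signal + 1), with an intensity trend, 3 group means and 5 residual degrees of freedom, for genes that reached a signal of 1 in 2 or more libraries. Adjustment was by Benjamini-Hochberg over every gene tested. Since the design allowed for normalised values or counts, edgeR 4.0.16 and DESeq2 1.42.0 on the recovered reads were alternatives. Fold changes understate changes of low genes. Errors are SDs and SEs between libraries, and the limit set by 3 reads covers counting error only. RSEM can split reads between near-identical or overlapping genes. Positions and lengths come from GENCODE M21 on GRCm38 (13671 of 13677 identifiers matched), and promoter sequences from RefSeq. Ratios per kilobase are descriptions without a test. Named are the called members, the 8 highest per kilobase in C, the 16 subunits of the ventricular action potential, and called genes of the partner and pump lists. The marker lists covered ventricular myocytes, atrium, skeletal muscle, pericytes and smooth muscle, fibroblasts, endothelium, the conduction system, epicardium, adipocytes, immune cells, and neurons and glia. The members, lists and named genes were chosen with earlier results of these data known. Values of some members and list genes are not reported here. The scripts were tested on simulated reads.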

Additional observations from a re-analysis of the deposited data

How the results depend on the processing

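Under 17 alternatives, 75 pairs of a named gene and a comparison gave 1263 values. Of these, 1215 kept their side of the threshold, 41 lost the call, 7 gained one and 0 calls reversed direction. A change of sign between values that passed in neither fit counts among the 1215. Over all Kcn genes, named or not, 23 calls were gained, by 7 genes, of which Kcnn1 gained 8 in KO against C. With the 2 groups compared fitted alone, the genes called in KO against C went from 1883 to 3606 and in DKO against KO from 1599 to 730. DESeq2 moved DKO against C from 21 to 69. Leaving out 1 library at a time gave 416 to 2973, 4 to 90 and 310 to 1989 called genes in KO against C, DKO against C and DKO against KO. Called Kcn genes then numbered 4 to 10 (8 in all libraries) in KO against C, 4 to 9 (9) in DKO against KO and 0 in DKO against C, where no alternative gave a call. Without KO 1 or KO 3 the single KO library left is assumed to vary like the other groups; 4 Kcn genes, Kcne1, Kcnj3, Kcnv2 and Kcna2, remained in both comparisons with KO. The cause of these moves was not tested, beyond the smaller number of libraries. With DKO 2 left out, 8 of 8 calls remained in KO against C and 7 of 9 in DKO against KO. Deviations from the group means correlated from -0.274 to 0.219 between same-numbered libraries and from -0.363 to 0.212 between others. With 2 or 3 libraries the deviations of a group cancel each other, so these values cannot show whether the replicate numbers pair the libraries. With a replicate block, 9, 0 and 7 Kcn genes and 1794, 21 and 1269 genes in all were called in KO against C, DKO against C and DKO against KO, and Kcna1 and Kcnt2 were among the calls lost. At 3 reads, a signal under 0.104 to 0.283 cannot be told from none, which limits Kcnh3 and Kcna1.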

Other observations

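Neighbours of the Kcn genes were read for their values. Rcan1, the gene of a calcineurin inhibitor, is the nearest measured gene on the higher-coordinate side of Kcne1 on chromosome 16, at 32485 bases and on the same strand. Its signal was 74.9, 86.8 and 69.7 in C, 352 and 178 in KO, and 60.2, 46.9 and 88.5 in DKO, so both KO libraries were above all others, as for Kcne1. Rcan1 rose in KO against C (1.69 ± 0.29, limma adjusted p = 0.00380) and fell by 1.98 ± 0.29 in DKO against KO (adjusted p = 0.00225). On the other side, Smim11, at 32941 bases and on the opposite strand, fell by 0.82 ± 0.20 in KO against C (adjusted p = 0.0206).

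Kcnq1 and Cdkn1c lie in an imprinted domain in which the antisense RNA Kcnq1ot1 is transcribed from the paternal copy. Kcnq1ot1 was at 2.60, 2.38 and 3.24 in C, 1.59 and 1.82 in KO, and 2.41, 8.26 and 4.98 in DKO, and it missed the threshold in DKO against KO (1.09 ± 0.33, adjusted p = 0.0546) but passed with edgeR, DESeq2, median centring and without DKO 1 (0.00552 to 0.0412). Cdkn1c, a cyclin-dependent kinase inhibitor 31297 bases from Kcnq1, was at 54.7, 37.3 and 39.5 in C, 14 and 11.9 in KO, and 54.4, 63.5 and 37.5 in DKO. It fell by 1.67 ± 0.23 in KO against C (adjusted p = 0.00125) and rose by 1.89 ± 0.23 in DKO against KO (adjusted p = 0.000809). Kcnq1 itself passed in neither comparison.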
